A study of Mus musculus with 4 samples.

Results

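The 3 genes of the MEF2 factors measured here, Mef2a, Mef2c and Mef2d, and the 4 genes of the class IIa histone deacetylases that bind them, Hdac4, Hdac5, Hdac7 and Hdac9, were examined in RNA-Seq libraries of wild-type murine B cells. They were chosen by name as 2 families of binding partners, with earlier results of these data known. All 7 were found among the 20599 gene symbols of the deposited tables. Peritoneal B1a cells (n = 2) are self-renewing B cells of the body cavities that make natural antibody, and splenic follicular B2 cells (n = 2) are the conventional recirculating B cells. All 4 libraries came from sorted cells of C57BL/6 wild-type mice. The RNA-Seq methods describe the mice as littermate controls of Dnmt3a-deficient animals, whereas the section on mice names C57BL/6J mice as the controls. Libraries made from the Dnmt3a-deficient animals were not used here. The labels give an age of 4 weeks for both groups, whereas the methods give an older age for the mice that yielded the B2 cells. An effect of cell type cannot be told apart from one of tissue or, if the methods hold, of age.

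MEF2 proteins are MADS-box transcription factors that sit on an A/T-rich consensus and can either activate or repress their targets. Class IIa deacetylases have little enzymatic activity of their own. They bind MEF2 through an N-terminal motif and bring corepressors to it. Calcium-dependent and related kinases phosphorylate them, 14-3-3 proteins then hold them in the cytoplasm, and MEF2 becomes free to bind coactivators. In the B lineage MEF2C is known for its part in the response to the antigen receptor and in early B cell development, MEF2D for work alongside it in precursor cells, and HDAC7 for silencing genes of other lineages.

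Of the 7 genes, Mef2c alone passed the test between the cell types, with a level 2.55-fold lower in B1a than in B2 cells. The Hdac4 transcript was 2.40-fold lower in B1a cells but did not pass. Mef2a, Mef2d and Hdac5 had overlapping values in the 2 cell types. Mef2c held a smaller share of the MEF2 transcripts in B1a than in B2 cells, at 32.3% against 56.0% per deposited length and at 50.3% against 72.8% on CPM, so that Mef2d led in B1a cells on the former scale only.

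The upstream sequences of 3 of these genes are shown because they belong to the called gene, to the gene with the next largest log2 fold change, and to the one member with a match to the MEF2 consensus. Each is the 250 bases before a RefSeq transcription start on GRCm38.p6, written 5′ to 3′ on the strand of the gene. Capitals mark GC boxes (GGGCGG, or CCGCCC for the other strand) and the MEF2 consensus. The windows are chr13:83503784-83504033 on the plus strand for Mef2c, chr1:92180342-92180591 on the minus strand for Hdac4 and chr11:102230173-102230422 on the minus strand for Hdac5.
Mef2c: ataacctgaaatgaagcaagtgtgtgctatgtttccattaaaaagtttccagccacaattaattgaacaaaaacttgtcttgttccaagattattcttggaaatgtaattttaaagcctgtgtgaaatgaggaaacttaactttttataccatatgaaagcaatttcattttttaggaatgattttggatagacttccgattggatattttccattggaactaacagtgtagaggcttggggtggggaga
Hdac4: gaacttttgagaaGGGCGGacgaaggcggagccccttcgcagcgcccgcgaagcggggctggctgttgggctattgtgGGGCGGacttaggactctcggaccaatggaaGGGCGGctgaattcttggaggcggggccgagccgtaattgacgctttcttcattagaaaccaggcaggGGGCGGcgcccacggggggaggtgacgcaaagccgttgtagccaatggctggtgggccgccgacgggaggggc
Hdac5: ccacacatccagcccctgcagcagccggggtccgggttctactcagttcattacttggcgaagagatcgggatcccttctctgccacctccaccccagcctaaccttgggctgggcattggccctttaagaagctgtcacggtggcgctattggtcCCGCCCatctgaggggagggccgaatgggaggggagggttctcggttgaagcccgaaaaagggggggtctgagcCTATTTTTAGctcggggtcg

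The Mef2c window shown, 1 of 3 for the gene, held 1 CpG, 33.6% G and C, no GC box and no MEF2 consensus. Both deposited Mef2c transcripts begin close to its end, with GENCODE counterparts that start at 83504034 and 83504206. Of the other Mef2c windows, 1 held 6 CpG and 1 GC box, and 1 held 4 CpG and no GC box. No deposited transcript begins close to either. The Hdac4 window held 23 CpG, 65.2% G and C and 4 GC boxes. Hdac5 had a MEF2 consensus that begins 20 bases before the start, together with 1 GC box and 12 CpG. Over 32851 windows of the same length in the RefSeq promoter table, the median was 6 CpG and 52.4% G and C, 32.7% held a GC box on either strand, and 2.92% held the MEF2 consensus. Each match describes letters in a window, and no binding was measured here. None of the other RefSeq windows of the 7 genes held the MEF2 consensus.

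The deposited expected counts, in which RSEM divides a read that fits several entries between them, summed to 11578785 and 11558489 in the B1a replicates and to 11032732 and 18588623 in the B2 replicates. Across the tested genes the B1a replicates resembled each other less (Pearson's r across genes of 0.836 for log2 CPM) than the B2 replicates did (0.966). The edgeR fit estimates 1 trend of dispersion over all 4 libraries, with a common biological coefficient of variation of 0.507. The member counts were well above the floor of 3 counts, between 129 for Hdac4 in B1a replicate 1 and 16055 for Mef2c in B2 replicate 2. The floor covers counting error only, as the reads carry no molecular identifiers and may be copies of 1 molecule. Each member had 1 deposited entry, and the posterior standard deviation of its count, RSEM's measure of reads shared with other entries, was at most 0.108% of the count.

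The B cell marker Cd79a, a subunit of the antigen receptor, had 1692 and 1598 CPM in the B1a replicates and 1262 and 1185 CPM in the B2 replicates, and Pax5, the factor that maintains B cell identity, had 258 and 255 CPM against 523 and 506 CPM. These marker values are plain CPM, counts per library total without TMM scaling, whereas the CPM of members and partner genes below are TMM-scaled. The 5 B1a markers were each higher in both B1a libraries, with sums of 1138 and 859 CPM against 79.2 and 77.5 CPM. The 2 follicular markers, Fcer2a and Cr2, summed to 156 and 147 CPM in B1a and to 1988 and 1998 CPM in B2 cells. CD5, CD23 (Fcer2a) and CD21 (Cr2) also served in the sort. Of 9 macrophage genes in the tables, 5 were higher in both B1a libraries and 0 in both B2 libraries, with sums of 212 and 240 CPM against 68.5 and 73.6 CPM. Timd4 was at 0 in B1a replicate 1 and in B2 replicate 2, and Cd14 was at 0 in B2 replicate 2. Erythroid genes summed to 75.9 and 485 CPM in B1a and to 37.7 and 83.2 CPM in B2 cells. T cell genes summed to 138 and 81.6 CPM in B1a cells, with Cd4 at 0 in both libraries, and to 105 and 108 CPM in B2 cells. Of 4 mast cell genes, 3 were higher in both B1a libraries, with sums of 18.5 and 8.39 CPM against 1.54 and 0.968 CPM, and Fcer1a was at 0 in every library. Neutrophil genes were at 0 in both B1a libraries and summed to 1.36 and 6.83 CPM in B2 cells, and mesothelial genes summed to at most 0.0906 CPM. Platelet genes summed to 10.4 and 15.7 CPM against 22.0 and 13.6 CPM, and plasma cell genes to 79.6 and 99.3 CPM against 80.4 and 111 CPM. The part of these cells in the values below was not tested. In bulk RNA, fewer cells of a type and less RNA per cell cannot be told apart.

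Of the MEF2 factors, Mef2c (chr13:83504017-83667079, plus strand, GRCm38) had 313 and 334 CPM in the B1a replicates and 808 and 839 CPM in the B2 replicates. The groups did not overlap, and each pair of replicates lay close together. The means were 323 ± 14.6 CPM (SD, n = 2) in B1a and 824 ± 22.0 CPM (SD, n = 2) in B2 cells. The log2 fold change, always given as B1a over B2, was -1.35 with an SE of 0.11 and a 95% interval from -1.62 to -1.08 (adjusted p = 0.00307 by the quasi-likelihood test of edgeR, adjusted by Benjamini-Hochberg over 12078 genes). Of all tested genes, 5.74% were called at an adjusted p of 0.05, with 1.50% lower and 4.24% higher in B1a cells. Mef2c ranked 20 by p among the 181 genes called lower in B1a cells. The call was made in all 10 alternatives and with each of the 4 libraries left out in turn.

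Mef2a (chr7:67231163-67376456, minus strand), a member of the family that is expressed in most tissues, had 112 and 108 CPM in B1a and 111 and 114 CPM in B2 cells. The 4 values lay within a narrow range and the groups overlapped. Its log2 fold change was -0.03, with an interval from -0.42 to 0.36 (adjusted p = 0.937, edgeR), so that a change of the size found for Mef2c lies outside the interval.

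Mef2d (chr3:88141941-88172091, plus strand) had 165 and 260 CPM in the B1a replicates and 192 and 197 CPM in the B2 replicates. The B1a replicates enclosed the B2 values, and their ratio of 1.58 was above the median ratio of 1.33 between B1a replicates over 8901 genes that averaged 10 CPM or more. The log2 fold change was 0.13, with an interval from -0.44 to 0.69 (adjusted p = 0.830, edgeR). Without B1a replicate 1 it was 0.42 and was called (adjusted p = 0.0135), in a fit that called 31.0% of all genes, and without B1a replicate 2 it turned to -0.24.

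Of the class IIa deacetylases, Hdac4 (chr1:91928779-92195702, minus strand) had 11.6 and 23.3 CPM in the B1a replicates and 34.7 and 49.1 CPM in the B2 replicates. Both B1a values lay below both B2 values, and the B1a replicates differed by a ratio of 2.01. The means were 17.4 ± 8.29 CPM (SD, n = 2) and 41.9 ± 10.2 CPM (SD, n = 2). The log2 fold change was -1.27 with an SE of 0.45 and an interval from -2.37 to -0.16. Its adjusted p was 0.188 by edgeR's quasi-likelihood test, although the unadjusted p was 0.0312. The intervals here are for a single gene and carry no adjustment for the number of genes. Left out in turn, B1a replicate 1 and B1a replicate 2 gave calls at -0.85 and -1.86, in fits in which the lone B1a library is assumed to vary like the B2 libraries and in which 31.0% and 48.9% of all genes were called.

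Hdac9 (chr12:34047580-34917095, minus strand), whose short product lacks the catalytic domain but keeps the part that binds MEF2, had 80.9 and 95.3 CPM in B1a and 118 and 127 CPM in B2 cells. Both B1a values lay below both B2 values. The log2 fold change was -0.47, with an SE of 0.18 and an interval from -0.92 to -0.03, and the adjusted p was 0.208 by edgeR (unadjusted p = 0.0388). Of the settings run, it was called only without B1a replicate 2, at -0.60 (adjusted p = 0.00399), where 48.9% of all genes were called.

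Hdac7 (chr15:97792661-97844502, minus strand), the class IIa gene with the highest CPM in every library, had 205 and 200 CPM in B1a and 252 and 234 CPM in B2 cells. The groups did not overlap. The log2 fold change was -0.26, with an interval from -0.58 to 0.05 (adjusted p = 0.321, edgeR).

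Hdac5 (chr11:102195747-102230172, minus strand) had 114 and 71.4 CPM in the B1a replicates and 83.8 and 92.0 CPM in the B2 replicates. The B1a values enclosed the B2 values. Its log2 fold change was 0.07, with an interval from -0.57 to 0.72 (adjusted p = 0.920, edgeR), and leaving out B1a replicate 1 turned it to -0.30.

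Counted together, 1 of the 7 genes was called, 5 had a negative log2 fold change, and the median was -0.26 against -0.03 for all tested genes. Both B1a libraries lay below both B2 libraries for 4 members (Mef2c, Hdac4, Hdac7 and Hdac9), and for 29.0% of all tested genes. With 2 libraries against 2, an exact two-sided permutation test of a single gene cannot go below 0.33, so the calls depend on the spread estimated over all genes together.

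**Figure D1:**
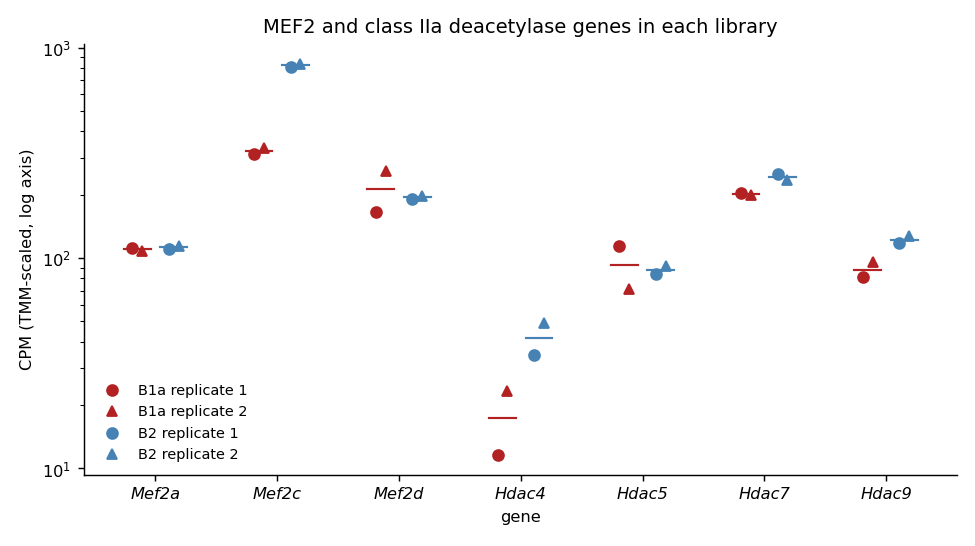
TMM-scaled CPM (log axis) of the 7 genes in each library, with B1a replicates in red and B2 replicates in blue; short lines are group means of 2 libraries. Mef2c is at 313 and 334 CPM in B1a and at 808 and 839 CPM in B2 cells, while the B1a values of Mef2d and Hdac5 enclose the B2 values.

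**Figure D2:**
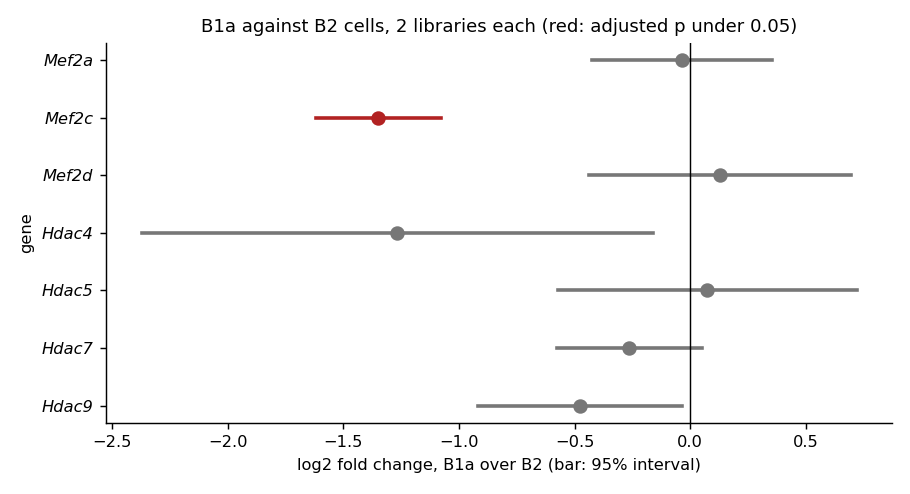
Log2 fold change of B1a over B2 for each gene (points) with its 95% interval (bars), red where the adjusted p is under 0.05. The interval of Mef2c runs from -1.62 to -1.08, while Hdac4 has a similar estimate and a wide interval, from -2.37 to -0.16.

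Levels of different genes were compared as TPM, the deposited value per transcript length. In B1a cells the order was Mef2d (159 and 246 TPM), Mef2c (114 and 119), Hdac7 (113 and 110), Hdac5 (69.3 and 38.4), Mef2a (46.2 and 44.7), Hdac9 (41.3 and 47.6) and Hdac4 (6.87 and 13.5). Hdac5, Mef2a and Hdac9 were neighbours in that order with overlapping replicate ranges. In B2 cells the order was Mef2c (346 and 355 TPM), Mef2d (218 and 221), Hdac7 (166 and 149), Hdac9 (65.7 and 72.4), Hdac5 (57.0 and 62.4), Mef2a (54.9 and 56.0) and Hdac4 (24.2 and 33.8), with no overlap between neighbours. Hdac4 was thus the lowest member in every library.

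Of the summed TPM of the 3 MEF2 genes, Mef2c held 32.3% ± 4.70 (SD, n = 2) in B1a and 56.0% ± 0.182 (SD, n = 2) in B2 cells. The share of Mef2d was 55.0% ± 7.19 (SD, n = 2) in B1a and 35.1% ± 0.178 (SD, n = 2) in B2 cells. Within a library, which needs no scaling between libraries, the TPM of Mef2c was 0.715 and 0.483 times that of Mef2d in the B1a replicates and 1.59 and 1.61 times in the B2 replicates. The ratio of Mef2c to Mef2a was 2.47 and 2.66 in B1a and 6.31 and 6.34 in B2 cells. Both ratios separated the cell types without overlap. The sum of the MEF2 genes was 320 and 409 TPM in B1a and 620 and 631 TPM in B2 cells.

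The make-up of the deacetylases differed less. Hdac7 held 50.8% ± 2.53 (SD, n = 2) of their summed TPM in B1a and 49.9% ± 4.30 (SD, n = 2) in B2 cells. Hdac9 held 20.3% ± 3.36 and 21.9% ± 1.27, and Hdac5 24.2% ± 8.33 and 18.9% ± 0.996, in the same order. Only Hdac4 had shares without overlap between the cell types, at 4.71% ± 2.44 and 9.20% ± 2.04. The 4 deacetylases together summed to 230 and 210 TPM in B1a and to 313 and 317 TPM in B2 cells, and the MEF2 sum was 1.39 and 1.95 times the deacetylase sum in B1a and 1.98 and 1.99 times in B2 cells. These shares are descriptions with no test, and shares of 1 sum depend on each other.

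**Figure D3:**
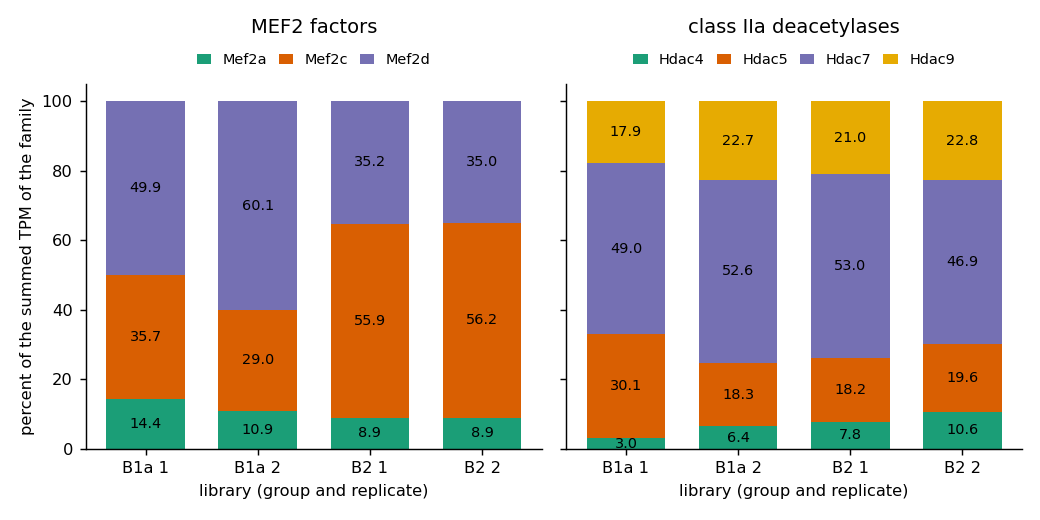
Percent of the summed TPM held by each gene in each library, for the MEF2 genes (left) and the class IIa deacetylases (right), as stacked bars that start at 0. Mef2d holds the largest part of the MEF2 bar in both B1a libraries and Mef2c in both B2 libraries, while Hdac7 holds the largest part of each deacetylase bar.

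The order of different genes depends on the annotated lengths. The deposited length was 2459 bases for Mef2d and 3960 for Hdac4, against 5401 and 8100 bases in the GENCODE transcripts matched to the same RefSeq entries, and it was 6397 to 6409 bases for Mef2c against 2862 and 2589 bases. On CPM, with no length, Mef2c held the largest share of the MEF2 genes in both cell types, at 50.3% in B1a and 72.8% in B2 cells. The difference between the cell types was therefore found on both scales, but Mef2d led in B1a cells only per length.

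The length column, which RSEM weights by the level of each transcript, differed between the cell types without overlap for Hdac9 alone among the 7 genes. It was 4597 and 4587 bases in B1a and 4929 and 4770 bases in B2 cells. The deposited Hdac9 entry holds 2 transcripts, whose GENCODE counterparts have 25 exons and 12 exons. The one with 12 exons is the short form without the catalytic domain. No counts per transcript were used here, and the shift was not tested.

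Some exons overlap other genes. Mef2a shares 302 exon bases with Lysmd4 on the other strand, which had 16.0 and 16.9 CPM in B1a and 9.28 and 5.02 CPM in B2 cells, and Hdac7 shares 29 with Slc48a1. Antisense transcripts without an entry in the tables cover 531 exon bases of Mef2d and 3536 of Hdac4. The methods name a kit that keeps strand and the labels name another kit, and the strand setting of the count is not given in the sources used here, so reads from overlapping genes may not be separated.

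Mef2b, the remaining gene of the MEF2 family and known from germinal center B cells, was counted 0 times in both B1a libraries and 28 and 49 times in the B2 replicates. Against a floor of 3 counts per library it was at least 9.98-fold higher in B2 cells, before TMM scaling, but it was not called (adjusted p = 0.145, edgeR). It shares 62 exon bases with Borcs8 on the same strand, so its few counts are uncertain. It was called with either B1a library left out, as were 31.0% and 48.9% of all genes.

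The 3 tested genes whose pattern over the 4 libraries lay nearest to that of Mef2c, among 8900 genes that averaged 10 CPM or more, were Stat4, Rictor and Stk17b. Their Euclidean distances in centred log2 CPM were 0.105, 0.109 and 0.127. Stat4, a signal transducer of cytokine receptors, had 30.4 and 34.9 CPM in B1a and 80.0 and 89.1 CPM in B2 cells. Rictor, a subunit of mTORC2, had 90.3 and 96.9 CPM in B1a and 223 and 222 CPM in B2 cells. Stk17b, a serine/threonine kinase of the death-associated family, had 226 and 251 CPM in B1a and 562 and 656 CPM in B2 cells. All 3 are lower in B1a cells by about the same factor, which is what the measure selects.

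The genes that act on or with these proteins were taken from 7 lists. With Mef2b these made 72 genes, of which 70 were tested, and 5 were called higher and 2 lower in B1a cells. That is a share of 10% against 5.74% of all tested genes. The lists were chosen with earlier results of these data known, so no conclusion is drawn from the difference between the shares. Their median log2 fold change was -0.09. With B1a replicate 1 left out 31.0% of all tested genes were called, and with B1a replicate 2 left out 48.9%, so the counts of calls given below for those fits are to be read against these shares.

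Of 17 tested kinases that phosphorylate class IIa deacetylases or act upstream of them, 2 were higher and 1 was lower in B1a cells, and the median was 0.15, or 0.18 above that of all genes. Sik1, a salt-inducible kinase whose gene is itself an immediate early gene, had 665 and 618 CPM in B1a and 140 and 178 CPM in B2 cells. It rose by a log2 fold change of 2.01 (SE 0.16, adjusted p = 0.00265, edgeR). Camk2d, a subunit of calcium/calmodulin-dependent kinase II, had 537 and 589 CPM in B1a cells against 282 and 291 CPM in B2 cells, and its log2 fold change was 0.97 (SE 0.12, adjusted p = 0.00907, edgeR). Prkd2, a protein kinase D that acts downstream of antigen receptors, went the other way. It had 201 and 211 CPM in B1a and 426 and 444 CPM in B2 cells, with a log2 fold change of -1.08 (SE 0.12, adjusted p = 0.00716, edgeR). The remaining 14 tested kinases were not called, and Prkd1 was too low to be tested. With each library left out in turn, the log2 fold change ran from 1.85 to 2.19 for Sik1 and from 0.90 to 1.04 for Camk2d. For Prkd2 it ran from -1.12 to -1.04. The median of the list was -0.04 without B2 replicate 2 and -0.11 without B1a replicate 2. Relative to all genes, these medians were -0.03 and 0.02. On the TPM scales the median was -0.08, which was 0.22 and 0.24 above that of all genes. Without B1a replicate 1, 6 of the 17 kinases were called (31.0% of all genes), and 12 without B1a replicate 2 (48.9% of all genes).

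Of the tested 14-3-3 genes, 7 in number, 0 were called by edgeR, by DESeq2 or by limma-voom, and 1 had an unadjusted p under 0.05 by edgeR. Their median was -0.47, and -0.08 without B2 replicate 2. Without B1a replicate 1 and without B1a replicate 2, 3 and 4 of them were called. Ywhaz, the most abundant, had 665 and 844 CPM in B1a and 621 and 684 CPM in B2 cells, and Ywhae had 198 and 279 CPM against 159 and 200 CPM. Both overlapped between the groups, and their log2 fold changes of 0.21 and 0.41 went against the negative median of the list. For 3 of the 7 genes both B1a libraries lay below both B2 libraries, a pattern found in 29.0% of all tested genes. In the list of p38, ERK5 and calcineurin genes that activate MEF2, 0 of 10 were called by edgeR, by DESeq2 or by limma-voom. By edgeR 2 had an unadjusted p under 0.05, and with a replicate block 1 was called, lower in B1a cells. The fit with the block called 12.3% of all genes. Leaving out B1a replicate 1 or 2 gave 2 and 4 calls. Ppp3ca, a catalytic subunit of calcineurin, had 210 and 250 CPM in B1a and 287 and 314 CPM in B2 cells (log2 fold change -0.39, adjusted p = 0.207, edgeR), and Mapk14, the p38 alpha kinase, had 119 and 173 CPM against 128 and 134 CPM.

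Of 13 tested corepressor partners, Bcl6 alone was called. Without B1a replicate 1 there were 2 calls, and 6 without B1a replicate 2. BCL6 is a repressor that binds class IIa deacetylases and is needed for the germinal center. It had 43.8 and 15.9 CPM in B1a and 143 and 159 CPM in B2 cells, with a log2 fold change of -2.34 (SE 0.47, adjusted p = 0.0469, edgeR). The B1a replicates lay far apart, although both were well below the B2 replicates. The log2 fold change was -3.25 without B1a replicate 1 and -1.79 without B1a replicate 2. The call was not made on either TPM scale or with gene entries kept apart, where the adjusted p reached 0.0740. The other 12, among them the NCoR and SMRT subunits, were not called.

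By edgeR with no block, 0 of 6 coactivators were called, and unweighted limma-voom called 0. DESeq2, weighted limma-voom and edgeR with a replicate block each called 2, both lower in B1a cells. These fits called 12.8%, 11.7% and 12.3% of all genes, in that order. Ep300 and Crebbp were the 2 with an unadjusted p under 0.05 by edgeR with no block. With B1a replicate 1 or 2 left out, 2 and 4 were called. Ep300 had 461 and 467 CPM in B1a and 577 and 687 CPM in B2 cells (log2 fold change -0.45, adjusted p = 0.123, edgeR). Crebbp, its paralog, had 455 and 392 CPM against 542 and 606 CPM (log2 fold change -0.44, adjusted p = 0.136, edgeR). Ep300 and Crebbp were lower in both B1a libraries without passing the edgeR test with no block. Of the 7 other zinc-dependent deacetylases, 0 were called by edgeR, DESeq2 or limma-voom, and 1 had an unadjusted p under 0.05 by edgeR. With B1a replicate 1 or 2 left out, 1 and 3 were called. Hdac1 had 120 and 115 CPM in B1a and 127 and 121 CPM in B2 cells, and Hdac10 had 53.0 and 57.5 CPM against 80.5 and 76.7 CPM.

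Among 9 tested genes that have been linked to MEF2 as targets, 3 were higher in B1a cells, 0 were lower, and the median was 0.55. Klf6, a Kruppel-like factor, had 819 and 923 CPM in B1a and 138 and 138 CPM in B2 cells, with a log2 fold change of 2.66 (SE 0.12, adjusted p = 0.000683, edgeR). Klf2, a regulator of lymphocyte quiescence and homing, had 1366 and 1281 CPM in B1a and 495 and 502 CPM in B2 cells, with a log2 fold change of 1.41 (SE 0.10, adjusted p = 0.00236, edgeR). Ccnd2, the cyclin D2 gene, had 503 and 627 CPM in B1a and 116 and 155 CPM in B2 cells, with a log2 fold change of 2.06 (SE 0.20, adjusted p = 0.00463, edgeR). The 6 others were not called by edgeR, and DESeq2 called 3 of them, in both directions. Of all genes, DESeq2 called 12.8%. Without B1a replicate 1, 6 of the 9 genes were called, and 8 without B1a replicate 2. Many factors act on these genes, and no binding of MEF2 was measured here. Camkk1, of the kinases, and Il7r, of the targets, were at 0 in both B1a libraries. Placed at the floor of 3 counts they stayed below the medians of their lists, and the medians were unchanged.

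**Figure D4:**
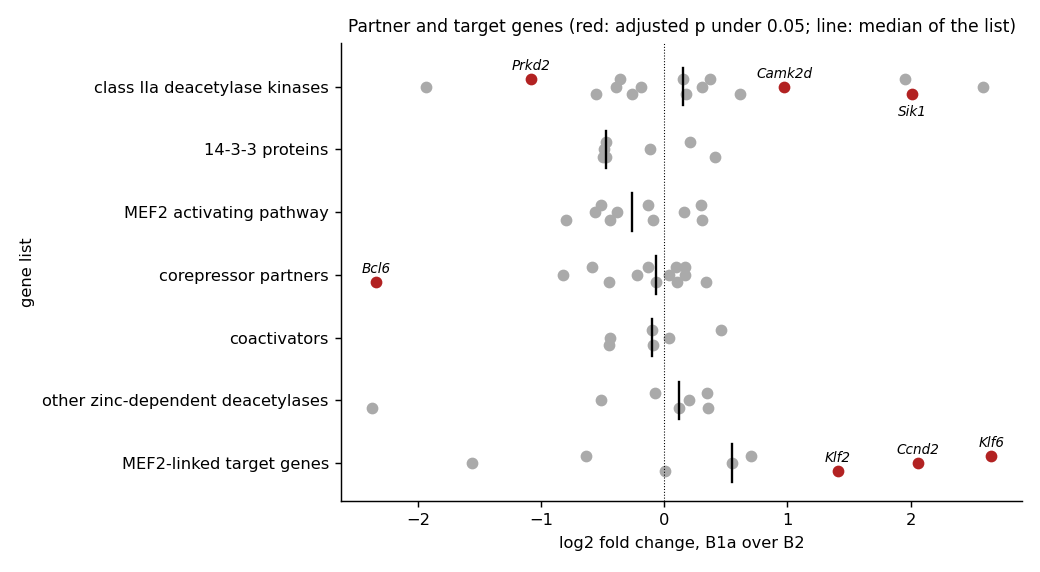
Log2 fold change of B1a over B2 for each tested gene of the 7 lists, in red where the adjusted p is under 0.05, with the median of each list as a black line. Called genes are named; Camkk1 and Il7r, at 0 in both B1a libraries, count in the medians but are not drawn.

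The estimate for Mef2c lay between -1.59 and -1.35 over 10 alternatives in normalization, tool, filter, scale and block, with adjusted p-values from 8.0e-30 to 0.0117. On TPM the median of all genes shifted to between -0.32 and -0.30, so each log2 fold change is lower there, and Mef2d and Hdac5 turned negative. Those of Hdac4 lay between -1.56 and -1.26 and its adjusted p between 0.0354 and 0.196, and it was called in 1 of the 10.

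**Figure D5:**
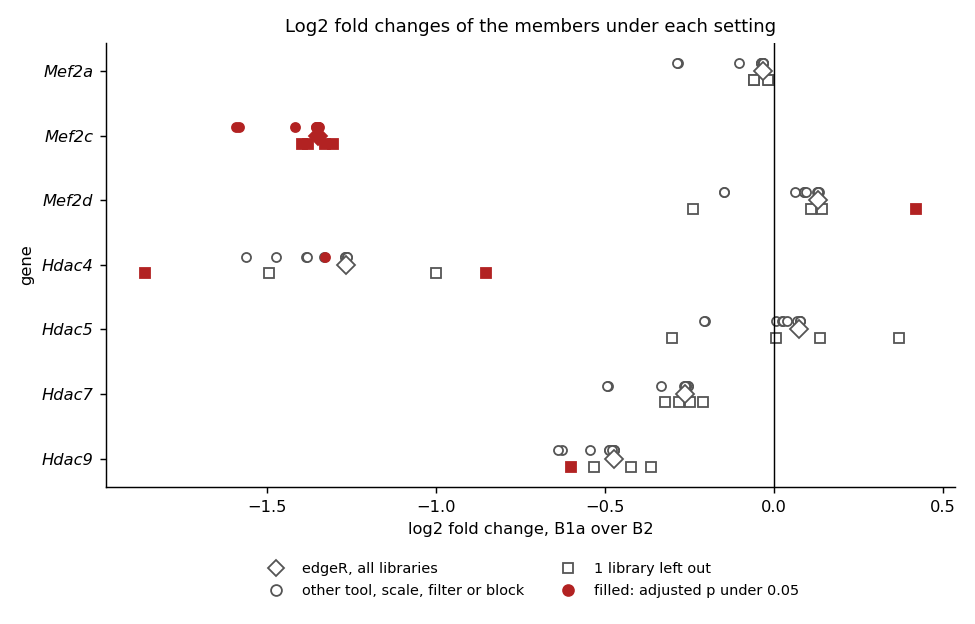
Log2 fold change of B1a over B2 for each gene by edgeR (diamond), under 10 alternatives (circles) and with 1 library left out (squares), filled where the adjusted p is under 0.05. Mef2c is filled throughout, and Mef2d and Hdac5 lie on both sides of 0.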

How the data were processed

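RNA-Seq was performed on B1a cells (n = 2) and follicular B2 cells (n = 2). The authors quantified RefSeq genes on the mm10 genome with RSEM, whose version is given as 1.2.29 in the submitters' processing notes and as another version in the methods. The authors deposited an expected count per gene entry, without normalization, the TPM of each entry, scaled to the same total in every library, and, as a signal column, the posterior standard deviation of each count. The 21970 entries carry 20599 symbols, and 951 symbols have several entries.

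The expected counts of entries with 1 symbol were added and rounded. Low genes were removed by filterByExpr, and TMM factors scaled the libraries. The quasi-likelihood test of edgeR 4.0.16 (R 4.3.3) was applied with no replicate block, with Benjamini-Hochberg adjustment over 12078 genes and a threshold of 0.05. The test was the same for all genes, and only these genes are described. The study's methods name EBSeq, which was not run here. Standard errors were derived from the F statistic. P-values set each difference against the spread between these samples, estimated over all genes together.

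Groups and replicate numbers came from the sample labels. The deviations of same-numbered B1a and B2 libraries from their group means had a correlation of -0.0347 across genes, and no source pairs them. The 7 genes and all gene lists were chosen with earlier results of these data known. Of the partner lists, called genes are named, and otherwise the 2 with the highest mean CPM; for a called member, the 3 genes nearest in pattern; of the others, markers as sums, except that the summed B cell list is not reported here and 2 of its genes, chosen after their values were seen, are given instead. Alternatives were DESeq2 1.42.0, upper quartile factors, limma-voom (limma 3.58.1) with and without a weight for each cell type, a minimum of 10 counts in each library, no minimum beyond 1 count, tests by limma on log2(TPM + 1) and log2(TPM + 0.1) for genes averaging 1 TPM or more, entries not summed, a replicate block, and each library left out in turn. The fits were tested on simulated data, drawn with the same trend of dispersion in both cell types. The simulation thus left out the wider spread between the B1a replicates. Sequences and positions are from RefSeq on GRCm38, and exon overlaps and transcript lengths from GENCODE.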

Additional observations from a re-analysis of the deposited data

How the results depend on the processing

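The Mef2c call and the direction of Mef2a, Mef2c, Hdac4, Hdac7 and Hdac9 were the same in all 10 alternatives and with each library left out. Mef2d turned to -0.15 on both log2(TPM + 1) and log2(TPM + 0.1), and Hdac5 to -0.20 and -0.21. The median of all genes was -0.30 and -0.32 there, and both members lay above it. Mef2a, at -0.28 and -0.29, lay above that median too, and by edgeR Mef2a was at -0.03, as was the median of all genes. With 1 library left out, the log2 fold changes ran from -1.40 to -1.31 for Mef2c, from -0.24 to 0.42 for Mef2d, from -1.86 to -0.85 for Hdac4, from -0.30 to 0.37 for Hdac5 and from -0.60 to -0.36 for Hdac9. The members called numbered 1 to 3, the partner and target genes called 7 to 42, and the genes called 539 to 6143, with the higher counts where 1 B1a library was left out and the lone one is assumed to vary like the B2 libraries.

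With the replicate number as a block, 1481 genes, 2 members and 11 partner and target genes were called against 693, 1 and 7 without it, and Hdac4 was called at -1.33 (adjusted p = 0.0354). Nothing in the sources pairs the replicates.

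Genes called numbered 1550 with DESeq2, 1415 with weighted limma-voom, 1141 with no filter and 359 on log2(TPM + 0.1), and 13 and 12 partner and target genes were called with DESeq2 and weighted limma-voom; the cause was not tested. Of all calls, 73.9% were higher in B1a cells by edgeR and 53.3% on log2(TPM + 1). On CPM in place of TPM the share of Mef2c among the MEF2 genes was 50.3% in B1a and 72.8% in B2 cells. Of the partner and target genes called, Camk2d was lost on log2(TPM + 0.1) (adjusted p = 0.0523), Bcl6 in 3 of 10 alternatives, and the other 5 in none. The lowest member count was 129, for Hdac4 in B1a replicate 1.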
